A study of Homo sapiens with 54 samples.

Results

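The TMEM132 family comprises 5 human genes, TMEM132A to TMEM132E, out of 19974 protein-coding genes in the RefSeq table of GRCh38.p14. Open chromatin at these genes was measured by ATAC-seq, in which a transposase cuts and tags accessible DNA, in PC3, a prostate cancer line from a bone metastasis, and in the triple-negative breast cancer line MDA-MB-231. In each line the groups were untreated control cells, cells alive 1 day after removal of cisplatin (a platinum compound that forms DNA crosslinks) and cells alive 10 days after removal; the labels used here state no dose or length of exposure. Every group comprised 3 biological replicates, and each of these was split into 3 experimental replicates, which makes 54 samples over 6 groups. One peak list per biological replicate was analysed, so that n = 3 lists per group and 18 lists in all. Each gene was described by the length covered by peaks within a window that runs from 10 kb before the gene to 10 kb after it, after every list had been brought to the same total length, and by the single peaks in that window. The members were chosen by these same values in the 6 groups, so their values are given as a description, without a test. All 5 genes passed the filter on low values (at least 500 bp in at least 3 lists), as did 16817 genes in all. Where nothing says how the replicate cultures were grown, p-values measure the spread between these lists only.

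TMEM132 proteins are single-pass membrane proteins with a large extracellular part that contains immunoglobulin-like and cohesin-like domains, and they are best known from the nervous system, where they have been proposed to link adhesion outside the cell to the actin skeleton inside it. TMEM132A, the most broadly expressed member, binds the endoplasmic reticulum chaperone BiP (HSPA5) and stabilises WLS, the carrier of Wnt ligands. TMEM132B has been reported to associate with GABA-A receptors, TMEM132D is known from oligodendrocytes and from association studies of panic disorder, and TMEM132E is linked to inherited hearing loss. In the worm Caenorhabditis elegans, the single TMEM132 protein acts with the WAVE actin regulators and the NAV2 homologue in neurons. TMEM132B, TMEM132C and TMEM132D are neighbours on the long arm of chromosome 12, with no other protein-coding gene in their windows.

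The genes differ in size and in how their promoters appeared in the lists. TMEM132D spans chr12:129071726-129904025 (832 kb), and only 0.576% of protein-coding genes have a longer body. TMEM132B spans chr12:125186386-125662377 (476 kb), TMEM132C chr12:128267170-128707911 (441 kb), TMEM132E chr17:34579582-34639318 (59.7 kb) and TMEM132A chr11:60924460-60937159 (12.7 kb), all on GRCh38. The promoter sequences below are RefSeq GRCh38.p14 sequences of 250 bases before to 50 bases after an annotated start, matched by symbol for 4 of the 5 genes, with the first listed start taken where there were several. They are shown because 1 of the 4 lay under a peak in every list and the other 3 in none. CpG dinucleotides are in capitals. TMEM132B (chr12:125186136-125186435, plus strand) holds 40 CpG, TMEM132C (chr12:128267742-128268041, plus strand) 16, TMEM132D (chr12:129903976-129904275, minus strand) 39 and TMEM132E (chr17:34579332-34579631, plus strand) 42.
TMEM132B: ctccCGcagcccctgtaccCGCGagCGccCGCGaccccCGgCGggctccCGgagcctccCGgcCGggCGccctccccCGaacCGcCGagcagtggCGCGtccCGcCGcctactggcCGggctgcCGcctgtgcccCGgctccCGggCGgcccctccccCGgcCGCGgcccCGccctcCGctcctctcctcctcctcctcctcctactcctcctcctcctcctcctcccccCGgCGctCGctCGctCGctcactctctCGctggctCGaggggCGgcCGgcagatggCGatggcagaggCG
TMEM132C: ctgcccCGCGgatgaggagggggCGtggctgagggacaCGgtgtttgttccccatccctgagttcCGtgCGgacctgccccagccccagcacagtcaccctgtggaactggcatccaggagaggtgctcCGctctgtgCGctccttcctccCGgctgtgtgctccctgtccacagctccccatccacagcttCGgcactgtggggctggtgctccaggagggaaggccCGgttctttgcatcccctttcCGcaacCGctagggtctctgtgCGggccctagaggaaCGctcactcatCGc
TMEM132D: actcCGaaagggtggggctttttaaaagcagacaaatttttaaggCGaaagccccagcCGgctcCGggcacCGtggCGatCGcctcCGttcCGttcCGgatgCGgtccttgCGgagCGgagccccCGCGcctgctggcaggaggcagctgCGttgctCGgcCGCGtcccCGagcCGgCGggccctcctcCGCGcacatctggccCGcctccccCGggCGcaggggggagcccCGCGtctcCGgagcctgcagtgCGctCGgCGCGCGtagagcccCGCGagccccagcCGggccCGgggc
TMEM132E: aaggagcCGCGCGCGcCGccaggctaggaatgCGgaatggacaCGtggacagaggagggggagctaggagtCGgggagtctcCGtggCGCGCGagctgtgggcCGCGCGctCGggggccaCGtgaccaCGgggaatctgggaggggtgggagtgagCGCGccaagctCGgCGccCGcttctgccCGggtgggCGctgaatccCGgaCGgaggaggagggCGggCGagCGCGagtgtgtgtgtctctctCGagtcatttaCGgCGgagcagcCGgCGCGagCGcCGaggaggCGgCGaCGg

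The TMEM132B promoter overlapped a peak in all 18 lists, and the TMEM132C, TMEM132D and TMEM132E promoters overlapped a peak in none of them. Of 15812 promoters of protein-coding genes in the same table, 52.5% had a peak in all 18 lists and 31.2% in none. CpG content did not separate the members: TMEM132D and TMEM132E have as many CpG as TMEM132B or nearly so, and of the 1822 promoters with at least 39 CpG, 67.2% had a peak in all 18 lists and 13.2% in none. The GC box GGGCGG, searched on both strands, occurred 3 times in the TMEM132B promoter, 1 time in that of TMEM132E and in neither of the others, against 58.5% of all promoters with at least 1 match. The peaks in the survivors of TMEM132C, TMEM132D and TMEM132E described next therefore lay away from the listed starts.

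The lists held from 82392 to 165535 peaks over 54.4 to 82.3 Mb, and they give no read counts, so their depth is unknown. Survivor lists held more peaks than control lists: PC3 lists held 106577 to 114731 peaks in untreated cells, 115050 to 164802 at day 1 and 133898 to 165535 at day 10, and MDA-MB-231 lists 82392 to 98777, 100564 to 133526 and 103830 to 126462. By covered length, the quantity that is summed and scaled here, the MDA-MB-231 groups overlapped, with 58.4 to 71.1 Mb at day 10 against 54.4 to 70.9 Mb in untreated lists. In PC3 every survivor list covered more than every untreated list. The PC3 lists covered 62.1 to 67.0 Mb untreated, 76.5 to 81.3 Mb at day 1 and 69.8 to 82.3 Mb at day 10. What part the number of peaks plays in the values that follow was not tested, beyond repeating them with 50000 peaks per list. The window of CDKN2A, a tumour suppressor gene known to be deleted in MDA-MB-231, was listed at 0 in all 9 MDA-MB-231 lists and held 1.21 to 3.23 kb in the PC3 lists, as the line labels predict. TMEM132 genes are known from neurons and oligodendrocytes, so markers of both were summed. All 7 neuron markers had peaks, with 47.3 to 80.9, 83.3 to 89.3 and 66.8 to 108 kb in untreated, day 1 and day 10 PC3 lists and 39.0 to 53.2, 45.6 to 52.3 and 48.2 to 50.2 kb in MDA-MB-231 lists, of which RBFOX3 held 15.4 to 82.4 kb. The higher sums in PC3 survivors lay mostly in RBFOX3, which averaged 33.5, 58.1 and 58.7 kb in untreated, day 1 and day 10 PC3. Of the others in PC3, SNAP25, STMN2 and INA were lower on average at day 10 than untreated, and SYT1, GAP43 and SYP were higher. The part of these markers in the TMEM132 values was not tested. Of 8 oligodendrocyte markers, 7 had peaks, at 16.1 to 25.3 kb in all lists, and MOG, which encodes a myelin protein, was at 0 in all of them. In a bulk sample, fewer cells with an open site and less signal per cell cannot be told apart.

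Untreated PC3 and untreated MDA-MB-231 cells had very different covered length at TMEM132D and overlapping covered length at the other members. The TMEM132D window held 0, 0.335 and 0 kb in the 3 untreated PC3 lists, against 17.3, 17.4 and 18.2 kb in the 3 untreated MDA-MB-231 lists. The groups were far apart, and a single PC3 list held 1 peak where the MDA-MB-231 lists held 26 to 35. On the log2(bp + 500) scale the difference, PC3 minus MDA-MB-231, was −4.93 ± 0.25 (SE). For the other 4 members the untreated groups overlapped, with differences from −0.04 for TMEM132A and TMEM132B to 0.34 for TMEM132E. TMEM132C and TMEM132E were at 0 in untreated MDA-MB-231 and at most at 0.227 kb in untreated PC3, so little could differ. The overlap also depends on the window: with 50 kb on each side the TMEM132C difference was −1.88, against 0.16 here. Thus 0 of 5 members were higher in PC3 without overlap, against 22.5% of all genes, and 1 of 5 was lower, against 47.7% of all genes. TMEM132D held 1.5 ± 2.6% (SD, n = 3) of the family's covered length in untreated PC3 and 68.3 ± 2.5% in untreated MDA-MB-231.

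**Figure D1:**
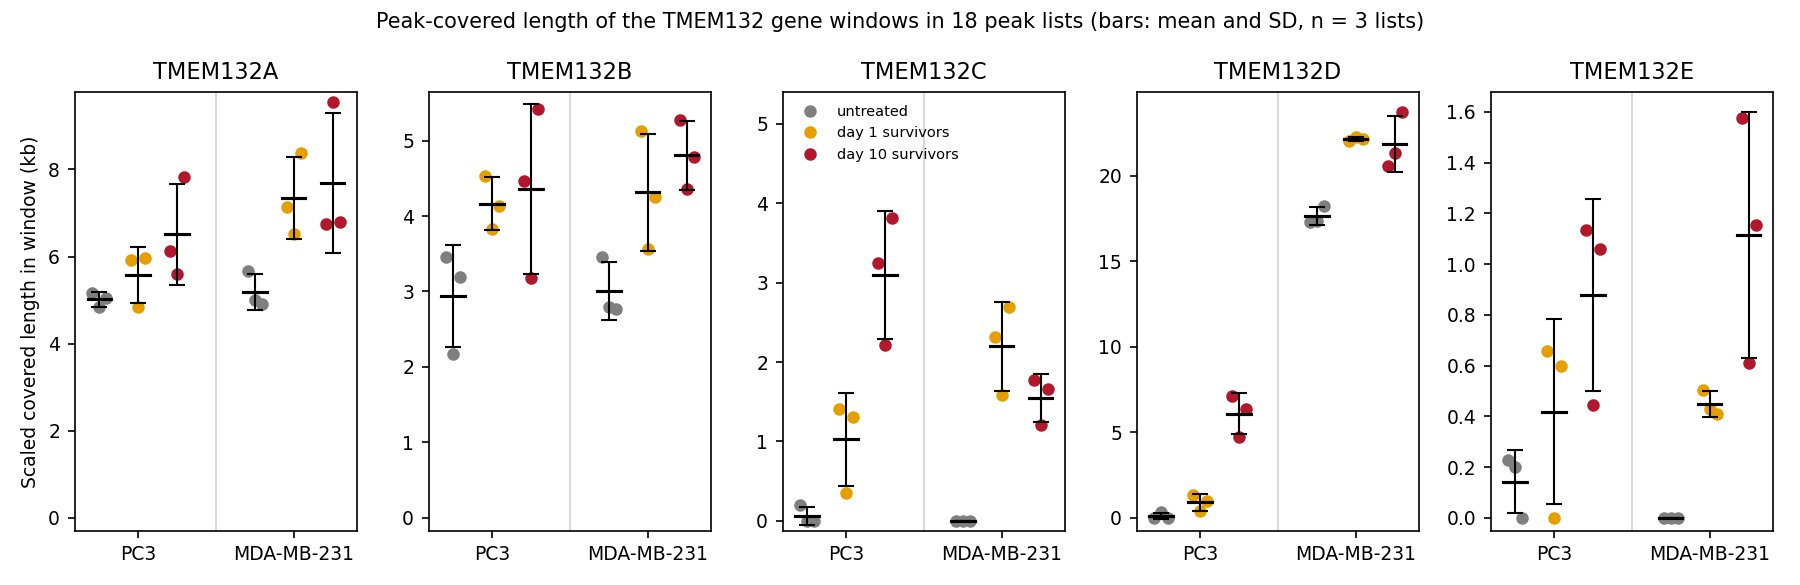
Scaled covered length (kb) of each TMEM132 gene window in the 18 lists, PC3 left and MDA-MB-231 right in each panel, with the mean and SD of 3 lists. TMEM132D lies at 0 to 0.335 kb in untreated PC3 and at 17.3 to 18.2 kb in untreated MDA-MB-231, and the day 10 PC3 lists lie between, at 4.76 to 7.14 kb.

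TMEM132D, the member with the most covered length in MDA-MB-231, was open in PC3 after cisplatin and most of all 10 days after removal. In PC3 at day 10 it held 29.2% of the family's covered length, and TMEM132A held slightly more than it on average (6.51 against 6.10 kb). In PC3 its window held 0, 0.335 and 0 kb in untreated lists, 1.34, 0.394 and 0.990 kb at day 1, and 7.14, 4.76 and 6.39 kb at day 10. The 3 PC3 groups did not overlap, and the lowest day 10 list held more than 3 times the highest day 1 list. The difference from untreated PC3 was 1.19 ± 0.40 (SE) on the log2 scale at day 1 and 3.46 ± 0.29 at day 10, and day 10 minus day 1 was 2.27 ± 0.35. In MDA-MB-231, where the gene was open before treatment, the window held 17.3, 17.4 and 18.2 kb in untreated lists, 22.0, 22.3 and 22.2 kb at day 1, and 20.6, 21.4 and 23.7 kb at day 10. Both survivor groups lay above the untreated lists without overlap, by 0.32 ± 0.02 at day 1 and 0.30 ± 0.06 at day 10, and they overlapped each other. In order of level, untreated PC3, day 1 PC3, day 10 PC3, untreated MDA-MB-231 and the MDA-MB-231 survivors followed each other without overlap, and the MDA-MB-231 survivor groups overlapped at the top. With only the 50000 peaks of highest area in each list, the PC3 difference at day 10 was 1.10 and that at day 1 was 0.00.

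The single peaks show where in TMEM132D this length lay. Peaks of all 18 lists merged into 59 regions in the window, 57 of them in the gene body. Untreated MDA-MB-231 lists all held 26 of these regions, and 21 of the 26 lay between 115 and 383 kb downstream of the start. Untreated PC3 lists shared no region, the day 1 PC3 lists all held 1 and the day 10 PC3 lists all held 13. Of those 13 regions, 12 were also held by every untreated MDA-MB-231 list, which is 92.3% of the PC3 regions and 46.2% of the MDA-MB-231 regions. Counting as gained a region with a peak in all 3 survivor lists and in no control list of the line, PC3 gained 12 regions at day 10, and 11 of the 12 were held by all untreated MDA-MB-231 lists. Over the whole genome, 12.6% of the regions gained in PC3 at day 10 were so held. The window itself is rich in such regions, since 26 of its 59 were so held, and this is the nearer share. The gene was picked with these lists in view, so this share describes TMEM132D and tests nothing. The table used gives no exons, so exonic and intronic positions were not told apart.

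**Figure D2:**
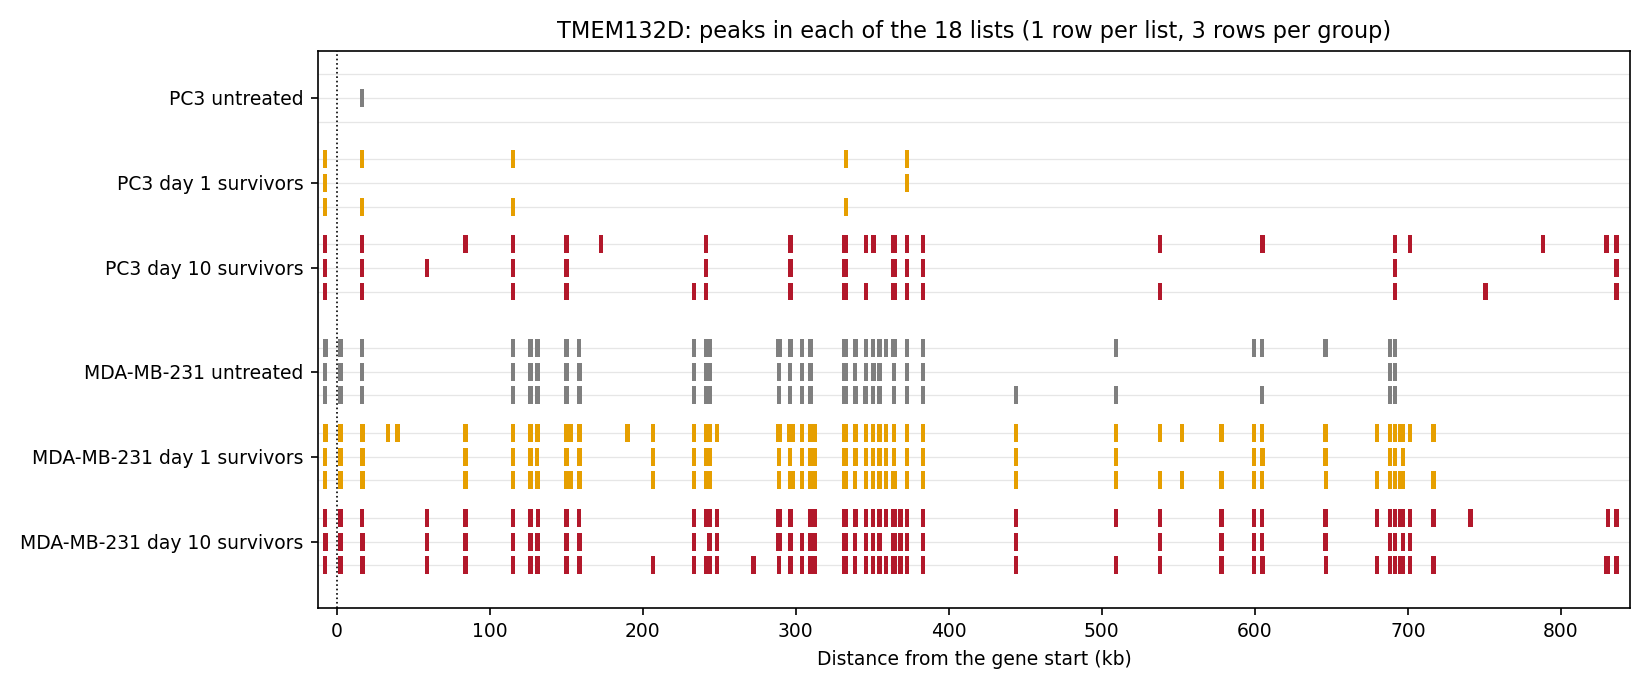
Peaks in the TMEM132D window by list (1 row per list, PC3 above MDA-MB-231), against distance from the gene start in kb, with narrow peaks widened to stay visible. The 13 regions shared by the day 10 PC3 lists fall at positions where the untreated MDA-MB-231 lists also have peaks in 12 cases, most of them between 115 and 383 kb.

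The widest regions belong to the same stretch. The widest in TMEM132D, chr12:129538900-129540745 (1846 bp, 364 kb from the start), had peaks in 3 of 3 lists of PC3 at day 10 and in 0 of 3 of the PC3 lists at day 1 and without treatment, and in 3 of 3 lists of every MDA-MB-231 group. Its peak area ranked at the median percentile 55.1 of the day 10 PC3 lists and at 86.3 of the untreated MDA-MB-231 lists. Next in width were chr12:129564321-129565565 (1245 bp), which had peaks in all 9 MDA-MB-231 lists and in no PC3 list, and chr12:129614244-129615439 (1196 bp), with the same pattern. PC3 survivors therefore shared part of the MDA-MB-231 pattern and lacked other wide regions of it. Among the few regions seen in PC3 at day 1, chr12:129911049-129911778, 7.4 kb upstream of the start, had peaks in all 6 PC3 survivor lists and in none of the untreated PC3 lists. A region at chr12:129208593-129209063 overlaps the promoter of the antisense transcript TMEM132D-AS2 and had peaks in 2 of 3 MDA-MB-231 lists at each time after treatment, and in no untreated or PC3 list. Peaks carry no strand, so a gene and its antisense partner cannot be told apart.

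TMEM132C, the member next to TMEM132D, had several peaks in the survivors of both lines, against none or 1 per list in untreated cells. In PC3 its window held 0.195, 0 and 0 kb in untreated lists, 1.41, 0.352 and 1.31 kb at day 1, and 3.25, 2.22 and 3.81 kb at day 10. The 3 PC3 groups did not overlap, with log2 differences from untreated cells of 1.36 ± 0.41 (SE) at day 1 and 2.66 ± 0.25 at day 10, and of 1.30 ± 0.43 between day 10 and day 1. In MDA-MB-231 the gene was listed at 0 in all 3 untreated lists, at 2.32, 1.59 and 2.69 kb at day 1 and at 1.78, 1.21 and 1.66 kb at day 10. No fold is given against lists at 0, and the survivor groups overlapped each other, with a day 10 minus day 1 difference of −0.39 ± 0.22. At day 10 the PC3 lists were above the MDA-MB-231 lists without overlap, at 2.22 to 3.81 against 1.21 to 1.78 kb, whereas at day 1 they were below them, at 0.352 to 1.41 against 1.59 to 2.69 kb. These orders were not tested.

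The regions gained in TMEM132C at day 10 had 1 in common between the lines. Its window had 15 regions, none of them in all 18 lists. PC3 gained 1 region at day 1 and 5 at day 10, and MDA-MB-231 gained 3 and 2. A single region, chr12:128671620-128671860 (241 bp, 404 kb from the start), was gained in both lines at both times, with peaks in 3 of 3 lists of every survivor group and in none of the untreated lists. The widest region, chr12:128542802-128544147 (1346 bp, 276 kb in), had peaks in 1 of 3 day 10 PC3 lists and in all 3 day 1 MDA-MB-231 lists, and in no day 10 MDA-MB-231 list. A region at chr12:128571983-128572835 (853 bp, 304 kb in) was held by all MDA-MB-231 survivor lists and by no PC3 list. The reverse held for chr12:128365859-128366473 (615 bp, 98.2 kb in), which had peaks in 2 of 3 day 1 and all 3 day 10 PC3 lists and in no MDA-MB-231 list. With the 50000 peaks of highest area per list, the log2 difference of TMEM132C from untreated PC3 was 0.00 at day 1 and 0.74 at day 10, and day 10 minus day 1 in MDA-MB-231 was 0.56.

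**Figure D3:**
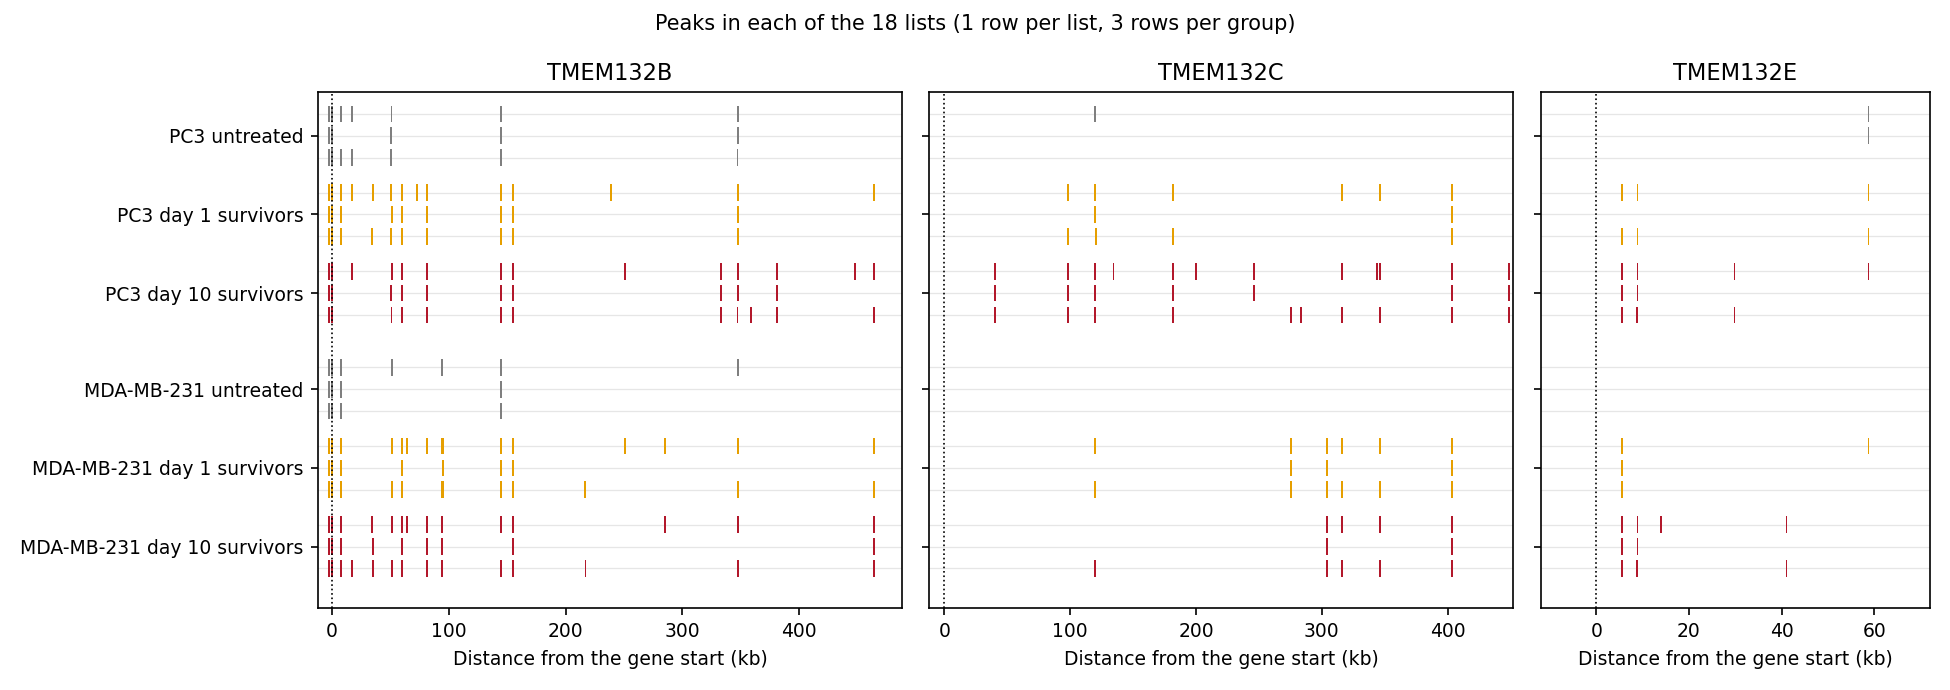
Peaks in the TMEM132B, TMEM132C and TMEM132E windows by list (1 row per list, PC3 above MDA-MB-231), against distance from each gene start in kb, with narrow peaks widened to stay visible. TMEM132B has peaks at its start in all 18 lists, while TMEM132C and TMEM132E have no peak in the untreated MDA-MB-231 lists and 1 to 12 per list in survivors, apart from 1 PC3 list at day 1 with none in TMEM132E.

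TMEM132B, the first of the 12q24 members and the one with an open promoter, held more covered length on average in survivors of both lines, added inside the gene. In PC3 the window held 3.46, 2.17 and 3.20 kb in untreated lists, 4.53, 3.82 and 4.14 kb at day 1, and 4.46, 3.18 and 5.42 kb at day 10. Day 1 lay above the untreated lists without overlap, by 0.46 ± 0.19 (SE) on the log2 scale, while at day 10 the lowest list fell within the untreated range and the difference was 0.49 ± 0.27. In MDA-MB-231 it held 3.45, 2.79 and 2.77 kb in untreated lists, 5.12, 3.57 and 4.25 kb at day 1, and 5.27, 4.35 and 4.79 kb at day 10. Both survivor groups were above the untreated lists without overlap, by 0.45 ± 0.16 and 0.60 ± 0.12. The lines overlapped in each of the 3 states. The sign depended on weak peaks: with the 50000 peaks of highest area per list, the difference was −0.43 in PC3 at day 1, −0.56 in PC3 at day 10 and −0.12 in MDA-MB-231 at day 10.

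The region over the TMEM132B start and a second region 3.0 kb upstream were in all 18 lists, and the added regions lay deeper in the gene. At the start, chr12:125185310-125186859 (1550 bp, the widest of the window), the median area percentile was 68.6 in untreated PC3, 60.6 at day 1 and 40.2 at day 10, and in MDA-MB-231 it was 82.2, 84.4 and 82.8 in the same order. Area percentiles are ranks within a list, so they also move with the number of peaks in it. PC3 gained 3 regions at day 1 and 5 at day 10, and MDA-MB-231 gained 2 and 5. Of these, 3 were gained in both lines at day 10. The regions chr12:125245926-125246660 (735 bp, 59.9 kb in) and chr12:125340813-125341232 (420 bp, 155 kb in) had peaks in all 12 survivor lists and in none of the 6 untreated lists. The third, chr12:125267065-125267470 (406 bp, 80.9 kb in), had peaks in all 6 PC3 survivor lists, in 1 of 3 MDA-MB-231 lists at day 1 and in 3 of 3 at day 10. Another wide region, chr12:125280434-125281308 (875 bp, 94.5 kb in), was seen in MDA-MB-231 alone, in 1 of 3 untreated lists and in all 6 survivor lists, and in 0 of 9 PC3 lists. The third in width, chr12:125220437-125221220 (784 bp, 34.4 kb in), had peaks in 2 of 3 PC3 lists at day 1 and in all 3 MDA-MB-231 lists at day 10, and in no other list. The 875 bp region covers the promoter of LOC105370054, an uncharacterised transcript on the minus strand inside TMEM132B (chr12:125280767-125281066), shown because it is, besides the TMEM132B start itself, the one promoter of the table inside a 12q24 member that had a peak in all lists of a survivor group. It holds 6 CpG, in capitals, fewer than most promoters of the table (80.5% have as many or more).
LOC105370054: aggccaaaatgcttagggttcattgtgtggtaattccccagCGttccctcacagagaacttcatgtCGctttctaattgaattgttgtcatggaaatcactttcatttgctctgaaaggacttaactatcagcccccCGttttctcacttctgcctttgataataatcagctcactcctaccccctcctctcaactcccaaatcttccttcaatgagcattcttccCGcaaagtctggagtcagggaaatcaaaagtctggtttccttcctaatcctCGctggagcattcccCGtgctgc

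TMEM132E, on chromosome 17 beside the CCL chemokine genes, had little covered length and gained it near its start. In PC3 its window held 0.227, 0.199 and 0 kb in untreated lists, 0.659, 0 and 0.597 kb at day 1, and 1.13, 0.445 and 1.06 kb at day 10. Day 1 overlapped the untreated lists (0.44 ± 0.43, SE) and day 10 lay above them (1.08 ± 0.31). In MDA-MB-231 the gene was listed at 0 in all 3 untreated lists, at 0.505, 0.429 and 0.411 kb at day 1 and at 1.58, 0.609 and 1.16 kb at day 10. Day 10 was above day 1 without overlap, by 0.72 ± 0.27, and this was the only member of which that held in MDA-MB-231. Its window had 6 regions, and 2 of them were gained at day 10 in both lines. These were chr17:34584870-34585316 (447 bp, 5.5 kb from the start), seen in 2 of 3 PC3 lists at day 1 and in all lists of MDA-MB-231 at day 1, and chr17:34588132-34588618 (487 bp, 8.8 kb from the start), seen in 2 of 3 PC3 lists at day 1 and in no MDA-MB-231 list at day 1. The widest of the window, chr17:34593398-34593890 (493 bp, 14.1 kb in), was seen in 1 day 10 MDA-MB-231 list alone. With the 50000 peaks of highest area per list, TMEM132E showed a difference of 0.00 in every comparison of survivors with untreated cells.

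The genes on either side of TMEM132E did not share one pattern. CCL1, a chemokine gene and the closest protein-coding gene before it, was listed at 0 in all untreated PC3 lists and held 0.223 to 0.263 kb at day 1 and 0.571 to 0.865 kb at day 10. In MDA-MB-231 it held 0.302 to 0.354 kb at day 1 and 0.307 to 0.368 kb at day 10, against 0.267 to 0.344 kb in untreated lists. CCL1 reached 500 bp in the day 10 PC3 lists alone and so passed the filter through the group where it is high, and its values are given without a test. CCT6B, a chaperonin subunit gene and the closest one after it, was lower in PC3 at day 10, at 0.379 against 0.751 kb on average (log2 difference −0.52 ± 0.12 SE, limma adjusted p = 0.00331), and its other 3 comparisons with untreated cells did not pass.

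TMEM132A, the shortest member, sits among other genes in an open region and had the smallest differences in PC3. In PC3 its window held 5.16, 4.84 and 5.04 kb in untreated lists, 5.92, 4.84 and 5.97 kb at day 1, and 6.13, 5.60 and 7.82 kb at day 10. Day 1 overlapped the untreated lists (0.13 ± 0.09, SE), and day 10 lay just above them (0.33 ± 0.14). In MDA-MB-231 it held 5.67, 5.00 and 4.91 kb in untreated lists, 7.13, 6.52 and 8.37 kb at day 1, and 6.74, 9.54 and 6.79 kb at day 10. Both survivor groups were above the untreated lists without overlap, by 0.46 ± 0.12 and 0.51 ± 0.17. Of its 11 regions only 4 touch the gene body, since the window reaches into TMEM109 and SLC15A3, which share its peaks. With the gene body alone, the PC3 difference was −0.22 at day 1 and −0.06 at day 10.

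Inside that window, the wide regions at chr11:60923438-60926360 (2923 bp, over the start of the body) and chr11:60913393-60916157 (2765 bp, over the TMEM109 promoter) had peaks in all 18 lists. The third in width, chr11:60936726-60938958 (2233 bp), where TMEM132A and SLC15A3 meet, was seen in 1 of 3 day 1 and 2 of 3 day 10 PC3 lists and in 2 of 3 MDA-MB-231 lists at each time after treatment, and in no untreated list. SLC15A3, a lysosomal peptide transporter gene, held 2.50 against 0.462 kb in PC3 at day 10 (log2 difference 1.57 ± 0.29 SE, limma adjusted p = 5.26e-04) and 3.88 against 1.65 kb in MDA-MB-231 at day 10 (0.99 ± 0.29, limma adjusted p = 0.0177). Its day 1 differences did not pass in either line (limma adjusted p = 0.0567 in PC3 and 0.059 in MDA-MB-231). TMEM109, a nuclear and endoplasmic reticulum membrane protein gene, passed in no comparison, with differences from −0.15 to 0.00.

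**Figure D4:**
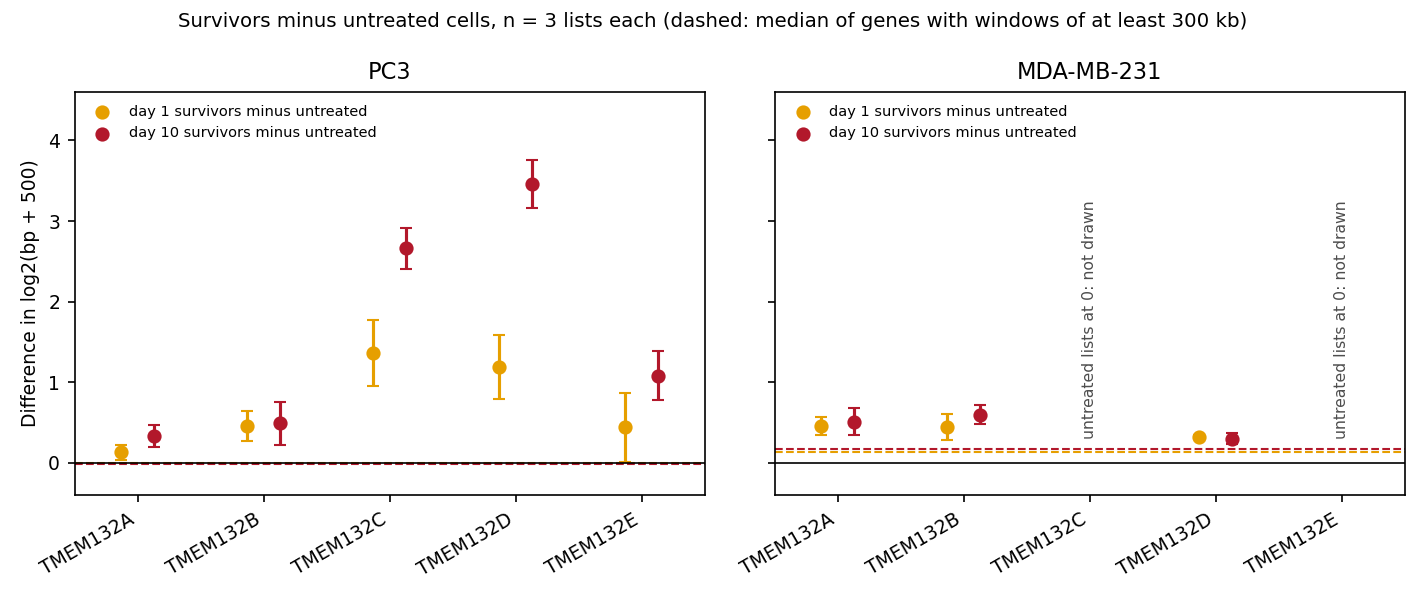
Difference between survivors and untreated cells for each member, as log2(scaled bp + 500), with its SE (n = 3 lists per group), PC3 left and MDA-MB-231 right. In PC3, TMEM132D (3.46) and TMEM132C (2.66) stand highest at day 10, and in MDA-MB-231 the drawn differences lie between 0.30 and 0.60, with TMEM132C and TMEM132E left out because their untreated lists are at 0.

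Counted over the family, survivors held more covered length than untreated cells. In PC3, 3 of 5 members were higher without overlap at day 1, against 11.5% of all genes, and 4 of 5 at day 10, against 13.2%. In MDA-MB-231 all 5 were higher at day 1, against 15.4%, and at day 10, against 14.2%. Since TMEM132B, TMEM132C and TMEM132D are very long, the nearer background is the 839 genes with windows of at least 300 kb, of which 17.4% were higher in PC3 at day 1, 27.2% in PC3 at day 10, 38.4% in MDA-MB-231 at day 1 and 42.7% in MDA-MB-231 at day 10. Between day 10 and day 1, 2 of 5 members (TMEM132C and TMEM132D) were higher in PC3, against 6.54% of all genes, and 1 of 5 (TMEM132E) in MDA-MB-231, against 12%. No member was lower in survivors in any of these comparisons. Because these lengths chose the members, the shares are set beside the counts only for scale.

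The 5 windows summed gave 8.27 kb in untreated PC3, 12.1 kb at day 1 and 20.9 kb at day 10, and 25.8, 36.5 and 37.0 kb in MDA-MB-231. The median difference of the members was 0.46 at day 1 and 1.08 at day 10 in PC3, and 0.46 and 0.60 in MDA-MB-231. For all genes it was −0.07 and −0.16 in PC3 and −0.09 and −0.11 in MDA-MB-231, and for genes with long windows 0.00 and −0.02 in PC3 and 0.14 and 0.17 in MDA-MB-231. Median-of-ratios scaling centres each list on its median gene ratio. It therefore moved the all-gene median in PC3 at day 10 to 0.00 nearly by construction. Differences of this size thus depend on the scaling chosen. Among the PC3 day 1 lists, replicate 2 had the fewest peaks (115050) but the greatest covered length (81.3 Mb, against 76.5 and 80.7 Mb), and it had the lowest day 1 values of TMEM132A to TMEM132E: 4.84, 3.82, 0.352, 0.394 and 0 kb. The part of either in these values was not tested.

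By single regions, the windows held 114 merged regions, 103 of them touching a gene body and 4 of them in all 18 lists. PC3 gained 5 of these at day 1 (3.51% of all regions of the genome were gained) and 25 at day 10 (8.58%). MDA-MB-231 gained 12 at day 1 (5.06%) and 19 at day 10 (6.5%). None of the 114 was lost in any of these comparisons, against 0.331% and 1.07% of all regions in PC3 and 0.436% and 0.582% in MDA-MB-231. A region was lost if all 3 untreated lists and no survivor list of the line held it. Only 8 of the 114 in PC3 and 33 in MDA-MB-231 were in all 3 untreated lists and so could be lost. With so few, and with shares this small, the lack of losses sets the windows apart from no other regions. The gained regions were mostly narrow and of low area: at day 10 their median width was 532 bp in PC3 and 479 bp in MDA-MB-231, and their median area percentile was 40.5 and 35.4. Without replicate 2 of day 1, the PC3 count at day 1 was 13 and the MDA-MB-231 count at day 1 was 26, and without replicate 2 of day 10 the MDA-MB-231 count at day 10 was 30. With the 50000 peaks of highest area per list, 1 region was gained in PC3 at each time and 2 and 3 in MDA-MB-231 at days 1 and 10.

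Along 12q24, the gain in covered length was not spread evenly. The 1 Mb before TMEM132B, which is dense in genes, held 76.8 ± 2.2, 73.5 ± 0.1 and 74.2 ± 5.5 kb per Mb (SD, n = 3) in untreated, day 1 and day 10 PC3, and 111 ± 3, 106 ± 1 and 97.0 ± 5.9 in MDA-MB-231. The gene bodies lay far below this, at 3.43, 6.50 and 7.47 kb per Mb for TMEM132B in PC3 and 2.87, 6.27 and 7.87 in MDA-MB-231, and at 0.134, 0.834 and 6.57 for TMEM132D in PC3 and 20.3, 25.8 and 25.4 in MDA-MB-231. The gap between TMEM132C and TMEM132D, which holds SLC15A4 and GLT1D1, had 11.5 ± 0.7, 14.9 ± 3.0 and 26.0 ± 1.3 kb per Mb in PC3 and 20.4 ± 2.0, 23.4 ± 1.1 and 27.4 ± 2.4 in MDA-MB-231. The wider gap between TMEM132B and TMEM132C was higher in PC3 than in MDA-MB-231 in all states, at 15.2, 16.4 and 17.8 against 4.45, 7.72 and 7.07 kb per Mb. The low value of TMEM132D in untreated PC3 thus did not extend over the whole stretch. Untreated PC3 was below untreated MDA-MB-231 in the C to D gap as a whole and in TMEM132D. It was also lower in the 1 Mb before TMEM132B, at 76.8 against 111 kb per Mb. It was higher in the B to C gap and in the 1 Mb after TMEM132D (19.8 against 13.4 kb per Mb).

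**Figure D5:**
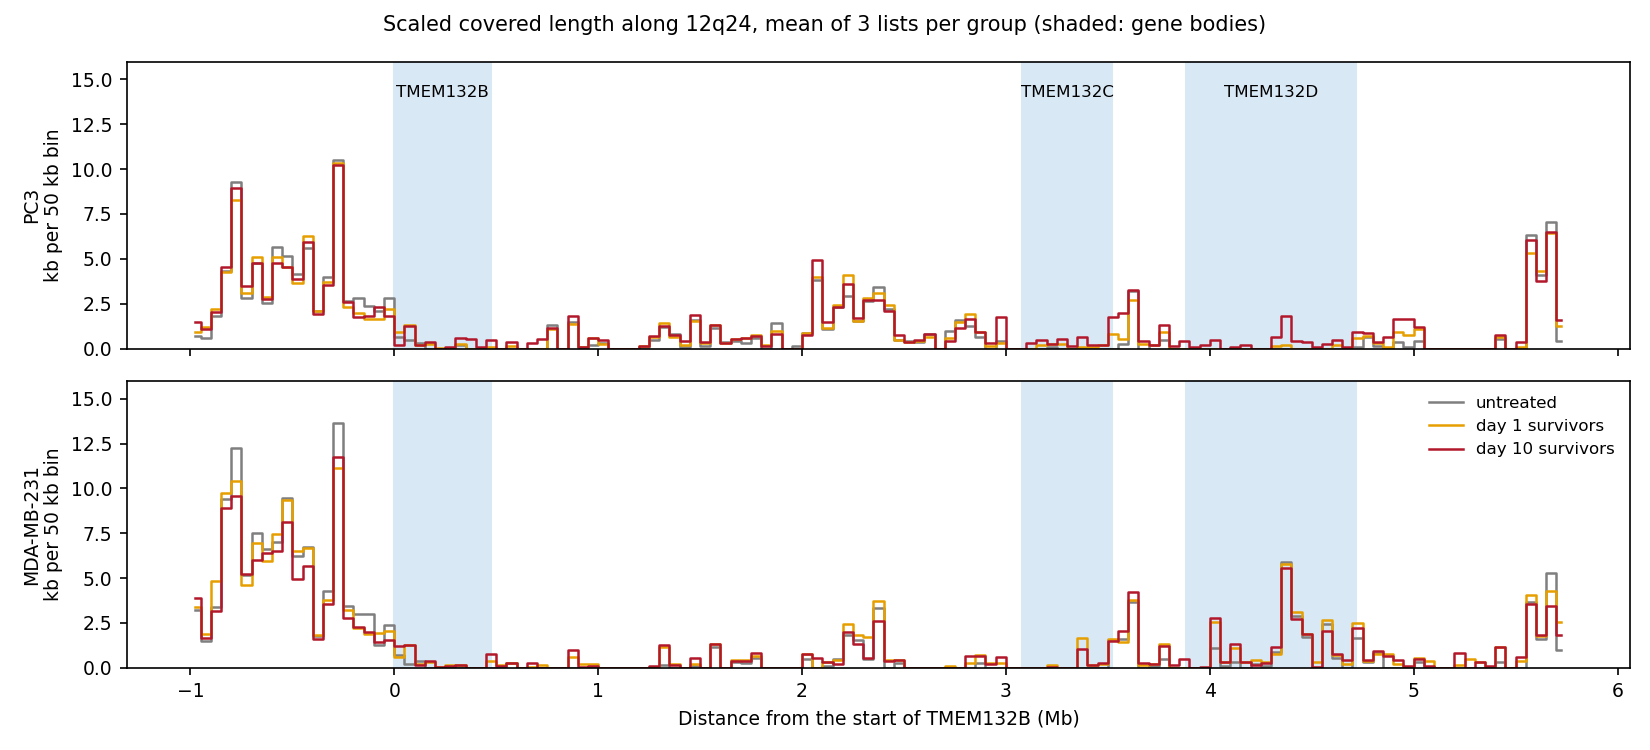
Mean scaled covered length (kb per 50 kb bin, 3 lists per group) along 12q24 against distance from the start of TMEM132B in Mb, PC3 above and MDA-MB-231 below, with the gene bodies of TMEM132B, TMEM132C and TMEM132D shaded. The PC3 line in TMEM132D is near 0 without treatment and highest at day 10, and in MDA-MB-231 the same stretch is covered in all 3 states.

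The protein-coding neighbours from 1 Mb before TMEM132B to 1 Mb after TMEM132D were tested in the limma fit over all genes, with Benjamini-Hochberg adjustment. Of 16 neighbours, 14 could be tested (FZD10 and PIWIL1 had too little covered length). At day 1, PC3 had 1 higher neighbour (6.05% of all genes were higher) and 4 lower ones (7.27%). At day 10, PC3 had 3 higher (11.8%) and 3 lower (33.1%). MDA-MB-231 had 4 higher (10.8%) and 3 lower (15.5%) at day 1, and 3 higher (11%) and 5 lower (16.7%) at day 10. The split of calls depends on the scaling: higher calls were 45.4% of all calls in PC3 at day 1, 26.3% in PC3 at day 10, 41.1% in MDA-MB-231 at day 1 and 39.6% in MDA-MB-231 at day 10, and under median-of-ratios scaling they were 78.5%, 57.6%, 70.1% and 69.3%, and without scaling 98.7%, 70.4%, 85.6% and 55.0%.

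The neighbours called higher included genes beside TMEM132D, and most of those called lower lay before TMEM132B. RIMBP2, a synaptic active zone protein gene, rose in MDA-MB-231 to 2.52 kb at day 1 and 3.03 kb at day 10, against 0.343 kb in untreated cells (log2 differences 1.79 and 2.06 ± 0.23 SE, limma adjusted p = 3.87e-05 and 4.21e-06). In PC3 it rose at day 10, at 1.11 against 0.543 kb (0.62 ± 0.23, limma adjusted p = 0.0345). GLT1D1, a glycosyltransferase-domain gene, rose in PC3 at day 10 (0.90 ± 0.21, limma adjusted p = 0.00295) and in MDA-MB-231 at day 1 (1.11 ± 0.21, limma adjusted p = 0.00128) and day 10 (1.16 ± 0.21, limma adjusted p = 6.64e-04). The readthrough ZNF664-RFLNA rose in all 4 comparisons, by 0.29 to 0.38, and RFLNA, which shares its peaks, in MDA-MB-231 at day 1 (0.51 ± 0.14, limma adjusted p = 0.0113). BRI3BP fell in all 4, most in PC3 at day 10 (−0.55 ± 0.09, limma adjusted p = 1.58e-04), and DHX37, an RNA helicase gene, fell in all 4, by 0.23 to 0.34. AACS, an acetoacetyl-CoA synthetase gene, fell in PC3 at day 1 and in MDA-MB-231 at day 10, and LOC107984449 fell in PC3 at both times. SCARB1, a lipoprotein receptor gene, and RAN, a nuclear transport GTPase gene, fell in MDA-MB-231 at day 10, RAN by 0.68. The falls depend on the scaling: with median-of-ratios scaling 4 neighbours were called in MDA-MB-231 at day 1, all higher, and at day 10 3 higher and 2 lower, while without scaling the 3 called in PC3 at day 1 were all higher.

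Genes whose products have been tied to TMEM132 proteins were tested in the same fit. The list, drawn up from the literature, has 23 genes: HSPA5 and WLS, the partners of TMEM132A, NAV2, the WAVE complex and GABA-A receptor subunits. Of these, 19 could be tested. PC3 had 2 calls at day 1, both higher (10.5% of the tested genes, against 6.05% of all genes). At day 10 it had 11, of which 6 were higher (31.6% against 11.8%) and 5 lower (26.3% against 33.1%). MDA-MB-231 had 4 calls at day 1, of which 2 were higher (10.5% against 10.8%) and 2 lower (10.5% against 15.5%). At day 10 it had 8, of which 6 were higher (31.6% against 11%) and 2 lower (10.5% against 16.7%). The list as a whole was not tested. Its median was 0.11 and 0.09 in PC3 and −0.0018 and 0.05 in MDA-MB-231 at days 1 and 10, against −0.07, −0.16, −0.09 and −0.11 for all genes. With the replicate number as a block, 6 rather than 4 genes of the list were called in MDA-MB-231 at day 1.

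GABA-A receptor subunits make up 8 of the 19 tested genes, and 3 of the 8 were called in no comparison. The share of all genes called in at least 1 of the 4 comparisons was not computed, so this count has no background. GABRG3 rose in PC3 at day 10 to 8.55 kb, against 2.58 kb in untreated cells (1.57 ± 0.29 SE, limma adjusted p = 4.87e-04), and in MDA-MB-231 at day 10 to 1.40 kb, against 0.523 kb (0.94 ± 0.29, limma adjusted p = 0.0228). GABRA5 rose in all 4 comparisons, by 0.77 to 1.06, with 1.89 and 1.93 kb in PC3 at days 1 and 10 against 0.808 kb in untreated cells. GABRA2 rose in MDA-MB-231 at both times to 0.481 and 0.590 kb, against untreated lists at 0. Of the WAVE complex, WASF3 rose in PC3 at both times (0.73 ± 0.16 at day 1, limma adjusted p = 0.00956) and in MDA-MB-231 at day 10, and ABI1 rose at day 10 in both lines by 0.21 and 0.24.

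In PC3 at day 10, 5 of the 19 tested genes (26.3%) were called lower, against 33.1% of all genes, so the share of falls was not above the background. All 5 belong to the WAVE complex: ABI2 fell by 0.54, WASF1 by 0.46, BRK1 by 0.40, CYFIP2 by 0.36 and NCKAP1 by 0.35 (limma adjusted p from 2.36e-04 to 0.0147). In MDA-MB-231, WASF1 fell at day 1 by 0.33 and BRK1 at day 10 by 0.34. WLS, the Wnt carrier bound by TMEM132A, fell in MDA-MB-231 at day 1 by 0.32 (limma adjusted p = 0.0462) and at day 10 by 0.41 (limma adjusted p = 0.0135), to 4.89 kb against 6.67 kb. HSPA5, which encodes BiP, was not called in any of the 4 comparisons. With median-of-ratios scaling 2 genes of the list were called lower in PC3 at day 10 in place of 5, and all of those called in MDA-MB-231 were higher. With the 50000 peaks of highest area per list, 1 and 6 genes of the list were called in PC3 and 1 and 2 in MDA-MB-231 at days 1 and 10.

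Genes on other chromosomes with the most similar pattern over the 18 lists were found by Pearson correlation of log2(scaled bp + 500). For TMEM132D they were FRMPD2 (r = 0.986), SYN3 (r = 0.986) and ATRNL1 (r = 0.984). SYN3, a synapsin gene, averaged 1.04, 1.29 and 5.41 kb in untreated, day 1 and day 10 PC3 and 15.0, 14.7 and 17.4 kb in MDA-MB-231, and ATRNL1, an attractin-like gene, 0, 0.381 and 2.15 kb in PC3 and 10.3, 11.1 and 9.58 kb in MDA-MB-231. For TMEM132C they were BPIFB2 (r = 0.94), SERPINA9 and HRH2 (r = 0.931 each), for TMEM132B PRKCB (r = 0.892), FRMD1 (r = 0.882) and TSPEAR (r = 0.878), for TMEM132E RPH3A (r = 0.901), SLC24A2 and PGLYRP2 (r = 0.895 each), and for TMEM132A FCRL1 (r = 0.875), CFAP90 (r = 0.869) and TMEM81 (r = 0.863). These correlations are descriptions over lists that share their groups, numbers of peaks and scaling, and they were the highest of 16817 genes.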

How the data were processed

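ATAC-seq peaks of PC3 and MDA-MB-231 were deposited by the authors as 1 list per biological replicate, 18 lists in all, with peak positions on GRCh38 and a score per peak, the area computed by Genrich. Per the submitters' processing notes, the tools were Genrich 0.6.2, SAMtools 1.6, Bowtie2 2.3.5.1, FastQC 0.12.1, Picard and R 4.4.1, with the hg38 (GRCh38) build. The way in which 3 experimental replicates became 1 list is not stated in the labels. Peaks carry no read counts, so the depth behind each is unknown and no interval for counting error is given.

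The length covered by peaks was summed per protein-coding gene of RefSeq GRCh38.p14 (body and 10 kb on each side, chromosomes 1 to 22 and X). Each list was scaled to the average list total and taken as log2(bp + 500). The 16817 genes that reached 500 bp in 3 or more lists were tested with limma 3.58.1 in R 4.3.3 over all 6 groups (12 residual degrees of freedom), with Benjamini-Hochberg adjustment at 0.05. A fold on this scale understates the change of windows with little covered length. Members were not tested: their difference in group means, its SE and whether the groups overlap are given. Peaks of all lists were merged into 232138 regions, and an overlap of 1 bp or more counted as holding a region. On simulated lists for MDA-MB-231 at day 1, with 200 of 16817 genes changed, the test recovered 48.5%, 93.5% and 100% of changes of 0.5, 1 and 2 on the log2 scale. The simulated lists had independent noise and few changed genes, whereas 4422 genes were called in the real comparison. These shares hold for the simulated setting and do not give the power on the real lists. Python 3.11.15, numpy 2.4.6, pandas 2.3.3 and matplotlib 3.10.9 were used.

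The members, the partner list, the neighbours and the alternatives were chosen with earlier results of these data known. Named by rule were all members, up to 6 called genes of the partner list and up to 6 called neighbours per comparison by size of change, the genes next to TMEM132A and TMEM132E, the 3 closest genes in pattern per member on another chromosome, the 3 widest regions of each window and the regions gained in both lines. Where more than 6 genes were called, others were added after their values were seen. A second gene meant as a check of the labels and some called genes of the lists are not reported here, though the counts include them. The labels do not say that replicate numbers pair the groups. Same-numbered lists of MDA-MB-231 at day 1 and untreated deviated together (correlations 0.195 to 0.389, every one above 0.1). That pairing was accepted there, as a reading of the data that no label states. The SEs and limma p-values given for that comparison are nevertheless without pairing. With pairing, the SE was 0.07 rather than 0.16 for TMEM132B and 0.13 rather than 0.12 for TMEM132A. The alternatives were other scalings, windows, filters, pseudocounts and area cuts, the number of peaks, a replicate block and leaving out each list.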

Additional observations from a re-analysis of the deposited data

Results flagged for a closer look

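For RIMBP2 and WASF1, a neighbour and a partner gene, the change after cisplatin differed between the lines by a test of the difference itself, the interaction term of the same limma fit, with Benjamini-Hochberg adjustment over all genes. The values are the survivor minus untreated change in PC3 less that in MDA-MB-231, on the log2(bp + 500) scale. Only the partner genes, the neighbours and the genes next to TMEM132A and TMEM132E were looked up. The share of all genes that passed this term is not given, so these calls have no background. RIMBP2 differed by −1.61 at day 1 (limma adjusted p = 0.00745), with changes of 0.18 in PC3 and 1.79 in MDA-MB-231. At day 10 it differed by −1.44 (limma adjusted p = 0.00605), with changes of 0.62 and 2.06. WASF1 differed by −0.51 at day 10 (limma adjusted p = 0.042), with changes of −0.46 in PC3 and 0.05 in MDA-MB-231. The same term passed for 2 genes where it cannot be read as a difference between the lines. For LOC107984449 at day 10 it was −0.51, but all MDA-MB-231 lists were at 0 and could not fall, so it restates the PC3 change of −0.51. For CCL1, the gene before TMEM132E, it was 1.17 at day 10, but the gene passed the filter on low values through the day 10 PC3 lists alone (0.686 kb on average, against untreated lists at 0), where it is high.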

How the results depend on the processing

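Of 555 recomputed member differences, 33 had the opposite sign. Of the 33, 27 were in comparisons whose groups overlapped, and 8 came from leaving out 1 list, all in overlapping comparisons. By size, 101 differences moved by the spread between lists or more, with the 6 reversed ones below counted apart. With 50000 peaks, 23 of 35 moved and 2 reversed, with the upper 50% 17 and 3, and by number of peaks 18 and 0. The 30 differences with a replicate block equal the main ones by construction. With 1 list left out, 210 of 210 differences moved by less than the spread between lists. With 3 lists per group the arithmetic allows no other outcome, so this count tests nothing. The 6 in comparisons whose groups did not overlap were TMEM132B in MDA-MB-231 at day 1 (−0.14 with the upper 50% by area) and at day 10 (−0.12 with 50000 peaks, −0.09 with the upper 50%), TMEM132B in PC3 at day 1 (−0.43 with 50000 peaks), TMEM132E in MDA-MB-231 at day 10 against day 1 (−0.29 with the upper 50%) and TMEM132A in PC3 at day 10 (−0.06 with the gene body alone). The TMEM132D difference in PC3 at day 10 was 1.10 with 50000 peaks, 2.55 with the upper 50% and 3.31 to 5.23 otherwise, and the untreated difference between the lines was −6.76 to −4.51. Apart from what the selection itself removes (weak peaks, flanks), the cause was not tested.

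Without scaling, the summed log2 difference was 0.78 in PC3 at day 1, 1.51 in PC3 at day 10, 0.64 in MDA-MB-231 at day 1 and −0.14 in MDA-MB-231 from day 1 to day 10. The genes called over the whole table numbered 4007 in PC3 at day 10, 2215 in MDA-MB-231 at day 1 and 2651 in MDA-MB-231 at day 10. Partner genes called numbered 7 in PC3 at day 10, 2 in MDA-MB-231 at day 1 and 4 in MDA-MB-231 at day 10. Neighbours called numbered 3 in PC3 at day 1, 4 in MDA-MB-231 at day 1 and 4 in MDA-MB-231 at day 10. With median-of-ratios scaling, the summed log2 difference was 0.60 in MDA-MB-231 at day 1, 0.63 in MDA-MB-231 at day 10 and −1.35 between the untreated lines. Partner genes called numbered 2 in MDA-MB-231 at day 1. Neighbours called numbered 4 in MDA-MB-231 at day 1 and 5 in MDA-MB-231 at day 10. With the 50000 peaks of highest area per list, the summed log2 difference was 0.00 in PC3 at day 1, 0.45 in PC3 at day 10, 0.45 in PC3 from day 1 to day 10, 0.33 in MDA-MB-231 at day 1, 0.27 in MDA-MB-231 at day 10, −0.06 in MDA-MB-231 from day 1 to day 10 and −1.46 between the untreated lines. The genes called over the whole table numbered 993 in PC3 at day 1, 4689 in PC3 at day 10, 1179 in MDA-MB-231 at day 1 and 1299 in MDA-MB-231 at day 10. Partner genes called numbered 1 in PC3 at day 1, 6 in PC3 at day 10, 1 in MDA-MB-231 at day 1 and 2 in MDA-MB-231 at day 10. Neighbours called numbered 2 in PC3 at day 1, 2 in MDA-MB-231 at day 1 and 2 in MDA-MB-231 at day 10. Regions gained in the 5 windows numbered 1 in PC3 at day 1, 1 in PC3 at day 10, 2 in MDA-MB-231 at day 1 and 3 in MDA-MB-231 at day 10. With the upper 50% of each list by area, the summed log2 difference was 0.20 in PC3 at day 1, 0.68 in PC3 at day 10, 0.29 in MDA-MB-231 at day 1, 0.27 in MDA-MB-231 at day 10 and −1.48 between the untreated lines. The genes called over the whole table numbered 1254 in PC3 at day 1, 2276 in MDA-MB-231 at day 1 and 1880 in MDA-MB-231 at day 10. Partner genes called numbered 1 in PC3 at day 1, 6 in PC3 at day 10, 0 in MDA-MB-231 at day 1 and 2 in MDA-MB-231 at day 10. Neighbours called numbered 3 in PC3 at day 1, 3 in MDA-MB-231 at day 1 and 5 in MDA-MB-231 at day 10. With the gene body alone, the summed log2 difference was 0.73 in PC3 at day 1, 1.78 in PC3 at day 10, 0.57 in MDA-MB-231 at day 1, 0.59 in MDA-MB-231 at day 10 and −2.28 between the untreated lines. Partner genes called numbered 1 in PC3 at day 1 and 1 in MDA-MB-231 at day 1. Neighbours called numbered 3 in PC3 at day 1, 3 in PC3 at day 10 and 4 in MDA-MB-231 at day 10. With 50 kb on each side, the summed log2 difference was 1.03 in PC3 at day 10, 0.43 in MDA-MB-231 at day 1, 0.46 in MDA-MB-231 at day 10 and −1.27 between the untreated lines. Relative to the rest of the chromosome arm, the summed log2 difference was 0.55 in MDA-MB-231 at day 10. By number of peaks, the summed log2 difference was 0.80 in PC3 at day 1, 1.67 in PC3 at day 10, 0.55 in MDA-MB-231 at day 10, 0.12 in MDA-MB-231 from day 1 to day 10 and −1.98 between the untreated lines. With a pseudocount of 100 bp, partner genes called numbered 1 in PC3 at day 1. With at least 50% of a region covered, regions gained in the 5 windows numbered 12 in MDA-MB-231 at day 10.

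With one list left out, the summed difference ranged from 0.40 to 0.67 in PC3 at day 1, from 1.15 to 1.44 in PC3 at day 10, from 0.46 to 0.53 in MDA-MB-231 at day 1 and from 0.49 to 0.53 in MDA-MB-231 at day 10. Day 10 against day 1 it ranged from 0.60 to 0.94 in PC3 and from −0.02 to 0.05 in MDA-MB-231, and between the untreated lines from −1.65 to −1.53. Genes called over the whole table numbered 917 to 2049 in PC3 at day 1 (2239 with all lists, 917 without PC3 day 1 replicate 3), 6041 to 6955 in PC3 at day 10, 2414 to 3745 in MDA-MB-231 at day 1 (4422 with all lists, 2414 without MDA-MB-231 day 1 replicate 3) and 3313 to 3957 in MDA-MB-231 at day 10. Partner genes called numbered 2 to 2, 8 to 11, 1 to 3 and 4 to 7 in the same order, and neighbours 3 to 6, 5 to 7, 5 to 7 and 6 to 8. Regions gained numbered 5 to 13, 25 to 32, 12 to 26 and 19 to 30.

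With the replicate block (8 residual degrees of freedom), genes called numbered 3151 and 8387 in PC3 and 5295 and 5511 in MDA-MB-231 at days 1 and 10, and partner genes 3, 11, 6 and 8; no count of calls moved by over 1.5 times. In MDA-MB-231 at day 1, where the pairing was accepted, 6 of 6 lists correlated best with their own number, against 2 and 4 of 6 in PC3 at days 1 and 10 and 4 of 6 in MDA-MB-231 at day 10, where the lists share only a number. Depth is unknown, the number of peaks differs between groups, and 3 lists per group limit the precision; most gained peaks are of low area, so the counts of gained regions depend on how weak a peak is kept.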
